A study of Mus musculus with 8 samples.

Results

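The genes described here are the small nuclear and nucleolar RNA genes of the deposited count table: every gene with the Ensembl biotype snoRNA, snRNA or scaRNA and a sum of at least 80 counts over the 8 RNAseq libraries. They are 65 of the 54532 genes in the table and 65 of the 2943 genes of these 3 biotypes. Of these members, 46 are snoRNA genes (of 1507), 18 are snRNA genes (of 1385) and 1 is a scaRNA gene (of 51). Because the sum of counts chose them, their sums are given only as a description.

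Small nucleolar RNAs (snoRNAs) guide the modification of ribosomal RNA. Those with box C and box D motifs direct methylation by the enzyme fibrillarin, and those with box H and box ACA motifs direct pseudouridylation by dyskerin. Small nuclear RNAs (snRNAs) such as U1, U2 and U6 form the spliceosome. Small Cajal body RNAs (scaRNAs) guide the modification of snRNAs such as U1 and U2. Most vertebrate snoRNAs are cut out of introns of other genes, called hosts here, and the mature RNAs of these classes carry no poly(A) tail. H/ACA proteins also bind *Terc*, the RNA partner of TERT.

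The cells were membrane GFP-positive (mG+) cells sorted by FACS from females aged 8 months. KO mice were *Tie2e-cre; TERTfl/fl; mTmG* and WT mice were *Tie2e-cre; TERT+/+; mTmG*, so that both genotypes carried Cre under the endothelial *Tie2e* promoter and the mTmG reporter, which switches from Tomato to GFP where Cre has acted. One KO and 1 WT library formed each of 4 pairs: subcutaneous adipose tissue (SAT) on high-fat diet (HFD), and SAT, visceral adipose tissue (VAT) and gastrocnemius muscle on chow. Whether a library pooled cells of several mice is not given in the sources used here. A pair holds no replicates, so each interval below is a 95% interval that covers counting error only.

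Library totals ranged from 6214269 to 18855772 counts. *Tert*, the deleted gene, had 114 counts in WT and 0 in KO of HFD SAT, 70 and 11 in chow SAT, and 24 and 7 in muscle. In VAT its 3 counts in WT and 9 in the KO library went against the label, so that direction in VAT is given for the library as labelled. Endothelial markers (10 genes, none at 0 in any library) summed to 262 to 1696 CPM (counts per 1000000 counts of the scaled library) in WT and 323 to 1938 in KO. The 7 stromal markers had a higher sum in KO in chow SAT (725 CPM in WT, 3304 in KO), in VAT (944 and 2143) and in muscle (577 and 1253), and the 6 mural markers likewise (53.3 and 180 in chow SAT). B, T, neutrophil and macrophage markers were also present: in chow SAT the 6 T cell markers summed to 2464 CPM in WT and 1019 in KO, and the 6 neutrophil markers to 20905 and 24784 CPM in muscle. Of the defining markers, *Cspg4* (mural), *Mmp8* (neutrophil), *Adipoq*, *Cidec*, *Lep* and *Plin1* (adipocyte), *Ckm*, *Myf5* and *Pax7* (myofibre and satellite) and *Alas2*, *Hba-a2* and *Hbb-bt* (erythroid) were at 0 in at least 1 library. The part of these cells in the results below was not tested, and in bulk libraries fewer cells of a type and less RNA per cell cannot be told apart.

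Sequences are shown for 7 members, to let the reader see which of them carry the textbook guide motifs and how the snRNA members differ from them. They are the GENCODE M21 transcripts on GRCm38, 5′ to 3′ on the gene's own strand. Capitals mark the box C motif (TGATGA, searched in the first 20 bases), the box D motif (CTGA, in the last 20 bases) or the ACA that lies 3 bases before the end. Only the transcribed strand was searched, and the motifs do not overlap in these genes.
Snora31: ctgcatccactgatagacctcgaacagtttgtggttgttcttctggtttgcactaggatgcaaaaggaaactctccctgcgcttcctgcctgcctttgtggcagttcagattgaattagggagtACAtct
Snord104: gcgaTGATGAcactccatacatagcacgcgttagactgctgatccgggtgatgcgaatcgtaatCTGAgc
Gm25835: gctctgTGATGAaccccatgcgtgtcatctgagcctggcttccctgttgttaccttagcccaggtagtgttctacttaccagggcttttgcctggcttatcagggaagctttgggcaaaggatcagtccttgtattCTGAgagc
Snord73a: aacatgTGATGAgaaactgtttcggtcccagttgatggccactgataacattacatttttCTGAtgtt
Rnu73b: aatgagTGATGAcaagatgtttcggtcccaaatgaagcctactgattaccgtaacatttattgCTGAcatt
Gm24060: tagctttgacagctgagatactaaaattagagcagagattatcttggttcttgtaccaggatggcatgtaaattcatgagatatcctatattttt
Gm25772: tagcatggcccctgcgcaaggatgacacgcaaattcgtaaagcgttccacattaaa

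*Snora31*, the snoRNA member with the most counts, lies at chr14:75847905-75848034 on the plus strand in an intron of *Tpt1*. *Snord104* lies at chr11:106500993-106501062 on the plus strand and overlaps no gene of the classes searched for hosts, given below. *Gm25835* lies at chr11:69668852-69668995 on the minus strand in an intron of *Eif4a1*, a translation initiation factor. *Snord73a* (chr3:86138791-86138858) and *Rnu73b* (chr3:86140618-86140688), both on the minus strand, sit in introns of the same ribosomal protein gene, *Rps3a1*, and are 77.8% identical over their aligned bases. *Gm24060* (chr11:118180941-118181035, minus strand) lies in an intron of *Cyth1*, and *Gm25772* (chr4:137325559-137325614, plus strand) in an intron of *Cdc42* but on the opposite strand. *Gm25772* is 96.2% identical to the U6 gene *Rnu6* over the part that aligned and has 218 near copies (at least 90% identity) among the genes of these biotypes, so its counts could belong in part to other copies.

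Box C and D motifs together were found in 9 of the 46 snoRNA members (19.6%), against 20.5% of all 1507 snoRNA genes. The ACA motif was found in 21 of 46 (45.7%), against 18.3% of all snoRNA genes. The other 16 snoRNA members held neither pattern, and no snRNA member held either. These are matches of letters in a window and were not read as functional sites.

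All 65 members lie at the same coordinates in the table and in GENCODE M21, and none overlaps an exon on the strand of its host. Small RNA genes, predicted transcripts awaiting a test and sense intronic transcripts were left out of this search. For members with a host on their own strand, exons on the other strand were not searched. An intron of a gene on the same strand holds 44 of the members and an intron of a gene on the other strand only holds 19. The other 2 (*Snord104* and *Gm25047*) overlap no gene of the classes searched. The 63 members with a host fall in 56 host genes, and 11 of them lie in 8 ribosomal protein genes named *Rpl* or *Rps*. Among snoRNA members 37 of 46 are on the strand of their host. Among snRNA members only 6 of 18 are, and 11 of 18 lie opposite their host. Whether the authors counted reads by strand is not given in the sources used here, and without strand, reads of a host's intron on either strand could be assigned to the small RNA gene.

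The members were mostly predicted genes with a Gm name: 29 of 46 snoRNA members and all 18 snRNA members. Of the 11 genes named Rnu with biotype snRNA, 8 had no count in any library and none was a member: *Rnu6*, *Rnu2-10*, *Rnu7* and *Rnu11* had 0 counts, *Rnu12* had 19 and *Rnu1a1* had 16 over all 8 libraries. Instead, 15 of the 18 snRNA members had *Rnu6* as their nearest named relative and 1 (*Gm23887*) had *Rnu2-10*. The U3 genes *Rnu3a* and *Rnu3b1* to *Rnu3b4* had no count. Several other RNAs without a poly(A) tail were at or near 0, with 0 counts for *Rmrp*, *Rpph1*, *Rn7s1* and *Rn7s2* and 23 for *Terc* in total. Others were not: rRNA genes held 1786 to 57747 counts per library and replication-dependent histone genes 633 to 2601. The 7SK gene *Rn7sk* had 28, 62, 22 and 44 counts in the WT libraries of HFD SAT, chow SAT, VAT and muscle and 0, 36, 45 and 76 in the KO libraries in the same order.

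Over all 3 biotypes, 2241 of 2943 genes (76.1%) had no count in any library and 637 had a sum from 1 to 79. The members held 10724 of the 21533 counts on these biotypes (49.8%). By comparison, 62.3% of the protein-coding genes, 7.09% of lincRNA genes and 1.45% of miRNA genes reached a sum of 80. Member sums ran from 81 to 685 with a median of 118, and member lengths from 56 to 343 bases. Just inside the minimum lay *Gm22814* and *Snora23*, both with a sum of 81, and just outside it *Snora30* with 78 and *Snord89* with 76.

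The share of all counts that fell on the members, in counts per 1000000 counts of the library (unscaled CPM), was small in every library, between 51.3 and 176 CPM. For HFD SAT it was 176 CPM in WT (interval 166 to 187) and 123 in KO. For chow SAT it was 51.3 in WT and 134 in KO. For VAT it was 104 (WT) and 102 (labelled KO), and for muscle 77.4 in WT and 104 in KO. The SAT chow WT library therefore had the lowest share of the 8 and the SAT HFD WT library the highest.

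Split by biotype, the snoRNA members took 120 and 66.6 CPM in WT and KO of HFD SAT, 47.2 and 101 in chow SAT, 66.0 and 72.8 in VAT, and 50.3 and 70.2 in muscle. The snRNA members took 56.0 and 54.2 CPM in HFD SAT, 36.3 and 29.1 in VAT, and 26.8 and 32.8 in muscle. In chow SAT they took 2.60 CPM in WT, which is 49 counts, and 32.5 in KO, which is 523 counts. The snRNA share of the SAT chow WT library thus lay far below that of the other 7 libraries, whereas its snoRNA share lay close to that of muscle WT.

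**Figure D1:**
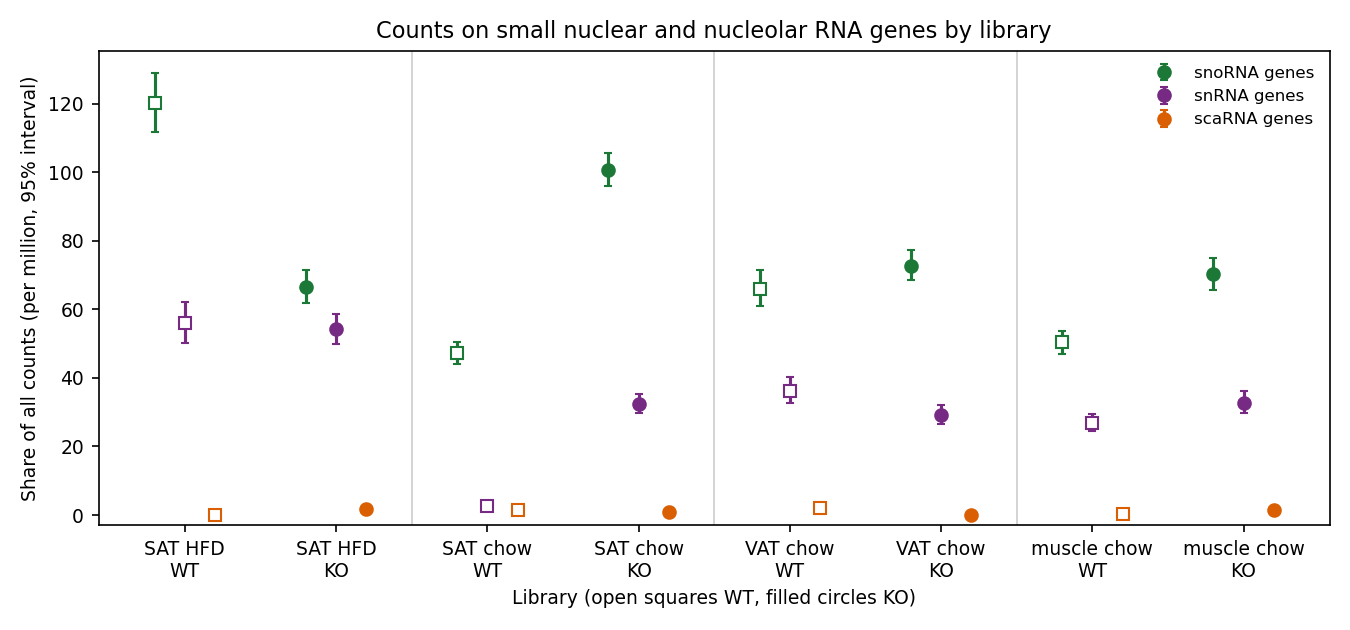
Share of all counts on the snoRNA, snRNA and scaRNA members in each library, in CPM, with 95% counting intervals; open squares are WT and filled circles KO. The snRNA share of the SAT chow WT library, 2.60 CPM, lies below those of the other 7 libraries, which run from 26.8 to 56.0.

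The ratio of these shares, KO over WT, was 0.697 for all members in HFD SAT (0.643 to 0.755) and 2.62 in chow SAT (2.42 to 2.83). In VAT the ratio for all members was 0.976 (0.900 to 1.06), and muscle had 1.35 (1.25 to 1.46). Counting intervals excluded equality in all pairs but VAT, and the direction in HFD SAT was opposite to that in chow SAT and muscle. For snoRNA members the ratio was 0.554, 2.13, 1.10 and 1.40 in the same order of pairs. For snRNA members it was 0.969 (0.847 to 1.11), 12.5 (9.32 to 17.1), 0.802 and 1.22. With no minimum sum, all 1385 snRNA genes together had ratios of 0.650 (0.594 to 0.712), 11.6, 0.702 and 1.45, so that in HFD SAT the interval lay below equality for all snRNA genes and spanned it for the members. All snoRNA genes had 0.657, 2.84, 0.967 and 1.16. The single scaRNA member, *Gm22009* in an intron of the importin gene *Kpna4*, had 0 counts in WT and 21 in KO of HFD SAT, 28 and 16 in chow SAT, 19 and 0 in VAT, and 3 and 18 in muscle. In chow SAT its ratio was 0.669 (0.338 to 1.28), where all 51 scaRNA genes together had 2.77 (1.99 to 3.91).

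These ratios describe libraries, not genotypes. Tested across the 4 pairs by an exact permutation of the genotype within each pair (two-sided, 16 arrangements, smallest possible p 0.125), the mean log2 ratio was 0.32 ± 0.81 (SD, n = 4 pairs) for all members, with p = 0.75. It was 0.22 ± 0.81 for snoRNA members, with exact p = 0.625, and 0.89 ± 1.85 for snRNA members, with exact p = 0.75. After Benjamini-Hochberg adjustment over these 3 relations each exact p was 0.75. The design of 4 pairs cannot reach 0.05 by this test. The differences between pairs were larger than the mean difference between genotypes. Without the SAT chow pair the mean log2 ratio turned to the other side of 0: −0.04 for all members, −0.08 for snoRNA members and −0.03 for snRNA members.

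Other RNAs moved beside the members in chow SAT. *Malat1*, *Neat1* and *Xist* are long RNAs that stay in the nucleus, and their share of counts was 23.5, 6.0 and 9.59 times as high in KO as in WT. The classes annotated as TEC (predicted transcripts awaiting an experimental test), sense_intronic and antisense had ratios of 8.01, 4.95 and 2.78. Genes of the misc_RNA and lincRNA classes had 7.04 and 3.25. In the opposite direction lay protein-coding genes up to 500 bases long, at 0.428, replication-dependent histone genes, whose mRNAs carry no poly(A) tail, at 0.430, and the mitochondrially encoded protein genes, at 0.627. So did miRNA genes, at 0.609, rRNA genes, at 0.676, and mitochondrial tRNA genes, at 0.898. In HFD SAT the ratios of *Malat1*, *Neat1*, TEC and sense_intronic genes were 0.955, 0.578, 0.676 and 0.663. There *Xist* lay on the other side, at 1.13 (1.10 to 1.16), as did histone genes at 1.19, rRNA genes at 1.79 and miRNA genes at 15.9. In the same pair the lincRNA *Gm26917* alone took 97220 CPM in WT against 6962 in KO. In VAT the ratios of *Malat1*, *Neat1*, TEC and sense_intronic genes were 0.717, 0.637, 0.725 and 0.773, and in muscle 1.34, 1.52, 1.20 and 1.14. *Xist* had 0.851 in VAT and 1.15 in muscle. The part of RNA capture, nuclear RNA or intronic reads in the members' ratios was not tested separately from genotype, and within a pair they cannot be told apart.

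**Figure D2:**
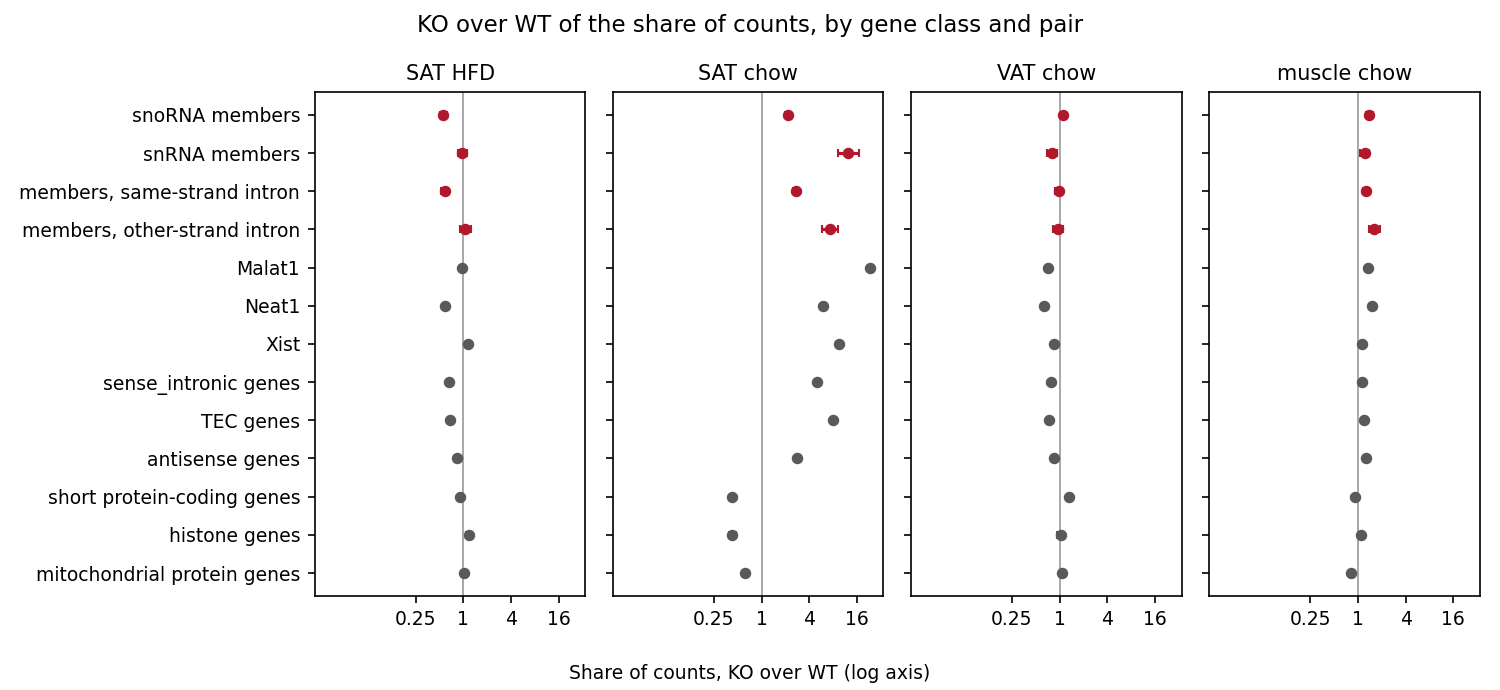
Share of counts in KO over that in WT (log axis) for the members, grouped by biotype and by strand of the host (red), and for other gene classes (grey), in each pair; bars are 95% counting intervals, often shorter than the marker. In chow SAT the snRNA members, at 12.5, lie between *Malat1*, at 23.5, and *Xist*, at 9.59.

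The members were also summed by the strand of their host. Members in an intron on the same strand took 35.9 CPM in WT and 96.7 in KO of chow SAT, a ratio of 2.69 (2.46 to 2.95). Members opposite their host took 4.72 and 34.5 CPM, a ratio of 7.31 (5.83 to 9.24). In HFD SAT the ratio was 0.580 (0.527 to 0.639) on the same strand and 1.06 (0.901 to 1.24) on the other. In VAT the ratios were 0.977 and 0.947, and in muscle 1.28 and 1.61. The strand groups differ in biotype, so both were split. In HFD SAT the snoRNA members had ratios of 0.555 (0.496 to 0.622) on the host's strand and 0.477 (0.358 to 0.635) on the other, close to each other. The snRNA members had 0.597 (0.495 to 0.721) on the host's strand and 1.55 (1.26 to 1.91) on the other. Of these 4 groups, only the snRNA members opposite their host had a ratio above 1 there. That group had 128 counts in WT and 355 in KO, and single genes weighed on it. *Gm22572* held 19 and 87 of them and *Gm22301* 0 and 59, whereas *Gm22814* held 34 and 0. In chow SAT all 4 groups had more in KO, at 2.44 and 4.98 for snoRNA and 9.60 and 16.5 for snRNA members on the same and the other strand. The differences between these groups were not tested.

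Gene by gene, KO was compared with WT within each pair on TMM-scaled counts (prior count 0.5), for members whose counts averaged at least 10 over the 2 libraries. A member counts as beyond 2-fold here when its whole counting interval lies past 2-fold. In chow SAT 49 members entered, and 23 were beyond 2-fold higher in KO (46.9%) and 1 lower, where 19.1% and 11.5% of all 16908 genes were. Of the TEC, sense_intronic and antisense genes that entered, 78.0%, 80.8% and 50.9% were beyond 2-fold higher. The median member log2 ratio was 1.81, with or without the 12 members absent from 1 library set at their lower bound, and the median of all genes was 0.00. For the 13 snRNA members that entered, 10 were beyond 2-fold higher and none lower, and the median was 2.94 with the 7 members absent from WT at their bound (5.13 with the prior count). For the 35 snoRNA members 13 were beyond 2-fold higher and 1 lower, with a median of 1.47.

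In HFD SAT 42 members entered, 9 of them beyond 2-fold higher in KO (21.4%) and 14 lower (33.3%), where 12.9% and 10.9% of all genes were. The shares higher and lower were 20.6% and 31.8% for TEC genes and 17.3% and 33.7% for sense_intronic genes. For antisense genes both were 26.5%. The median member log2 ratio was −0.22, beside 0.06 for all genes. It was −0.59 for the 28 snoRNA members and 0.15 for the 13 snRNA members. The members on their host's strand had a median of −1.07 (n = 28) and those opposite their host 0.73 (n = 13). In this pair 19 of the 42 members had no count in 1 of its 2 libraries. Members with counts in both ran from −2.57 to 1.33.

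In VAT 43 members entered, and 1 was beyond 2-fold higher and 1 lower in the library labelled KO, against 2.4% and 2.09% of all genes, with a median of 0.26. In muscle 51 members entered, and 1 was beyond 2-fold higher in KO and 1 lower, against 2.76% and 2.01% of all genes, with a median of 0.18. In both pairs the members' shares were near those of all genes.

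**Figure D3:**
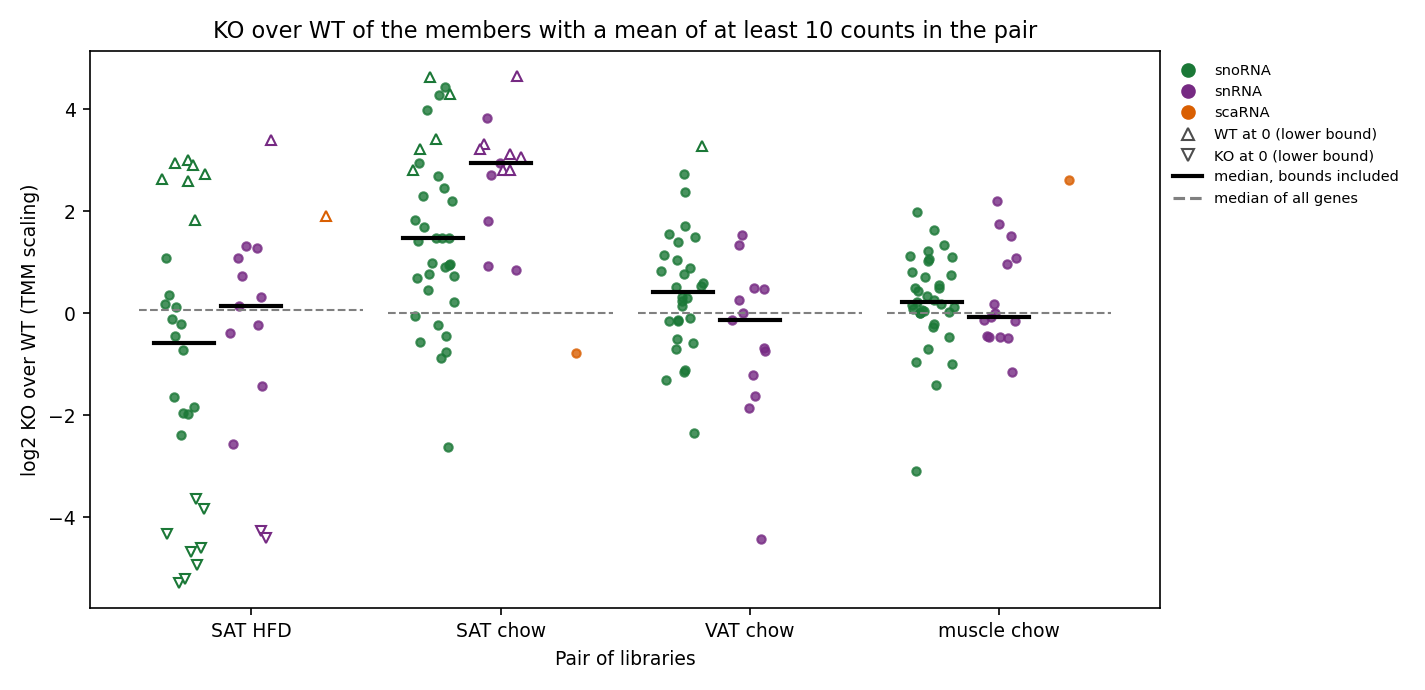
Log2 KO over WT of each member whose counts averaged at least 10 over the 2 libraries, by biotype; open triangles are lower bounds for members with no count in 1 library, black bars are medians with those bounds and dashed lines the medians of all genes. In chow SAT the medians are 1.47 for snoRNA and 2.94 for snRNA members, and in VAT and muscle most points lie within 2 log2 units of 0.

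Over the 4 pairs together, the quasi-likelihood test of edgeR with tissue and diet as a block called none of the 65 members, and none had an unadjusted p under 0.05. The lowest adjusted p of a member was 0.9996, and the same test called 0.00589% of the 16971 genes tested. DESeq2 called no member either among the 32 of 65 it gave an adjusted p, where it called 0.121% of all genes. By its unadjusted p, 5 of the 65 members and 599 of all genes were under 0.05. Of these members only *Gm22572* was given an adjusted p. *Gm24730*, *Gm25788*, *Gm25632* and *Gm25117* were not, so that they could not be called. The median member log2 fold change was 0.39, beside 0.03 for all genes, with 47 of 65 above 0. Without the SAT chow pair the median was 0.03, with 30 of the 58 members then tested above 0.

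The snoRNA members with the most counts differed in pattern. *Snora31* had 52, 153, 29 and 46 counts in the WT libraries of HFD SAT, chow SAT, VAT and muscle, and 111, 83, 92 and 81 in the KO libraries. After scaling its log2 ratio was 0.19 in HFD SAT and −0.87 in chow SAT, and 1.05 in VAT and 1.07 in muscle. Its host *Tpt1*, a highly expressed gene, had log2 ratios of −0.18, −1.46, 0.19 and −0.47.

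*Snord104* had 201 counts in WT and 32 in KO of chow SAT, a log2 ratio of −2.63 (−3.23 to −2.10), the only member beyond 2-fold lower in that pair. Elsewhere it had 19 and 33, 22 and 41, and 31 and 33 counts, with log2 ratios of −0.11, 0.29 and 0.35. In the SAT chow WT library it alone made up 20.8% of the counts on members, where no single member passed 9.73% in any other library. *Snord55*, a box C/D snoRNA, had 7 and 0, 47 and 92, 21 and 14, and 67 and 65 counts. *Gm22748*, an ACA snoRNA in an intron of *Odc1*, had 26 and 12, 45 and 85, 26 and 74, and 35 and 31.

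*Gm24347*, which lies opposite the intron of *Dennd4a*, was present in WT and absent in KO of HFD SAT (49 and 0 counts) and the reverse in chow SAT (0 and 74). Against a floor of 3 counts in the library at 0, these are at least 30.6-fold lower and at least 24.7-fold higher in KO. Such bounds cover counting error only. In VAT (72 and 102 counts) and muscle (38 and 36) its counting interval spanned 0. *Gm25483*, an ACA snoRNA related to *Snora73a*, was likewise absent from KO of HFD SAT (32 and 0 counts) and from WT of chow SAT (0 and 59). In VAT it had 8 and 35 counts, with an interval above 0.

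The related box C/D snoRNAs of *Rps3a1* lay on opposite sides in HFD SAT: *Rnu73b* had 59 counts in WT and 0 in KO, and *Snord73a* had 0 and 42. Their common host had a log2 ratio of −0.10 in that pair. In chow SAT both had more counts in KO (18 and 31 for *Rnu73b*, 5 and 15 for *Snord73a*). In muscle *Snord73a* had 25 counts in WT and 2 in KO, a log2 ratio of −3.08 (−6.50 to −1.38), the member beyond 2-fold lower there. *Snord49a* (0 and 45 counts) and *Gm25632* (0 and 43) were also absent from WT of HFD SAT, and *Gm26397*, with 62 and 0, from KO. So 2 snoRNAs from 1 host transcript could be at 0 in different libraries of the same pair.

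*Gm25835*, a box C/D pattern gene in *Eif4a1*, was the only member whose counting interval lay above 0 in all 4 pairs. It had 12 and 48 counts in WT and KO of HFD SAT, 34 and 66 in chow SAT, 11 and 50 in VAT, and 21 and 36 in muscle. The log2 ratios were 1.08, 0.95, 1.55 and 1.02, and those of *Eif4a1* were 0.03, 0.00, 0.04 and −0.42. Its log2 fold change across the pairs was 1.16 ± 0.84 (SE, n = 4 pairs), with an adjusted p of 0.9996 by edgeR. One of 65 members is 1.54%, where 0.896% of all genes with a sum of at least 80 had intervals above 0 in all 4 pairs. The log2 ratio itself was above 0 in all 4 pairs for 9 of 65 members (13.8%) and 5.26% of all genes.

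Among the snRNA members, *Gm24060* had the most counts, with 86, 8, 62 and 131 in the WT libraries of HFD SAT, chow SAT, VAT and muscle and 123, 121, 56 and 98 in KO. Only the SAT chow WT library stood apart, and there the log2 ratio was 3.82 (2.90 to 5.17), beside 0.47 for its host *Cyth1*. In the other pairs the ratio was −0.39, −0.75 and −0.15. *Gm25772* had 0 counts in WT and 75 in KO of chow SAT, at least 25.1-fold higher, and 9 and 43, 24 and 51, and 31 and 51 elsewhere, with a log2 ratio above 0 in each pair and an interval that spanned 0 in VAT. *Gm25549*, in an intron of *Mapkapk2*, had 33 and 10, 0 and 30, 37 and 35, and 43 and 36.

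*Gm22107*, in an intron of the myosin gene *Myh9*, had 21 counts (WT) and 1 (labelled KO) in VAT, a log2 ratio of −4.41 (−10.37 to −2.36), and 38 and 89, 23 and 44, and 43 and 26 in the other pairs. *Gm22301*, opposite an intron of *Pip5k1a* and with 15 near copies, had 0 and 59 counts in HFD SAT and 27 and 11 in VAT. *Gm25596*, opposite an intron of *Rnf146*, had 27 and 43, 3 and 23, 6 and 24, and 20 and 12. The member beyond 2-fold higher in the VAT library labelled KO was the snoRNA *Gm25788* (0 and 44 counts, at least 9.65-fold higher), and in muscle it was *Gm22009*, the scaRNA, with 3 and 18 counts and a log2 ratio of 2.62 (1.07 to 5.25).

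**Figure D4:**
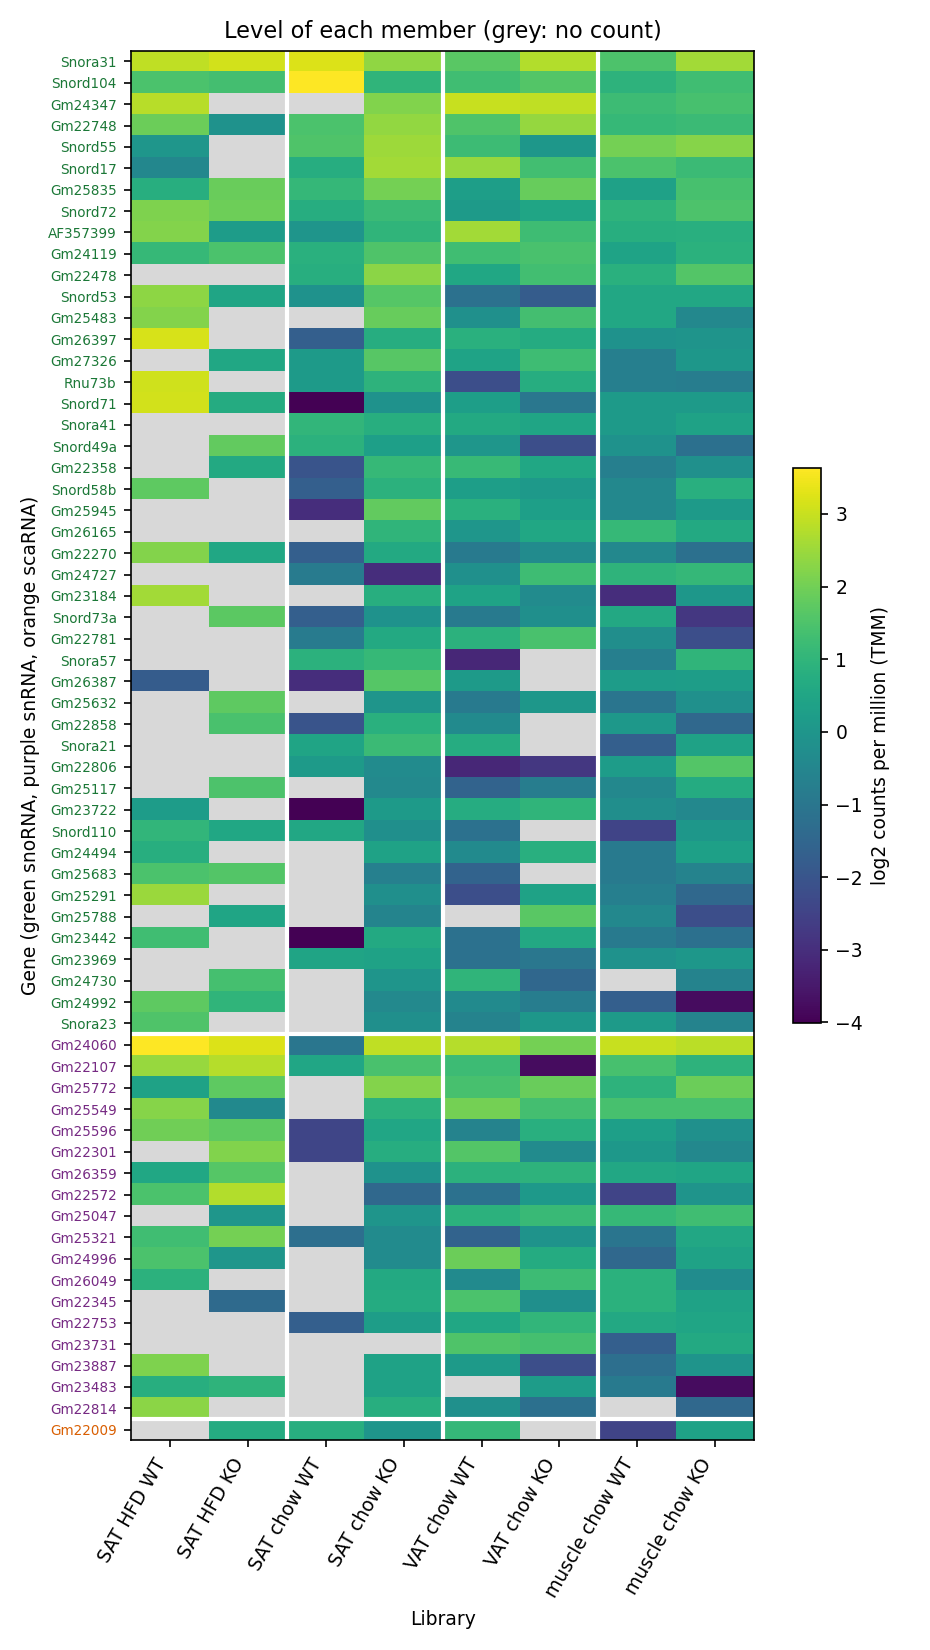
Level of each of the 65 members in each library, as log2 CPM after TMM scaling, ordered by biotype and by the sum of counts; grey means no count. Grey cells number 25 and 29 in WT and KO of HFD SAT and 25 in WT of chow SAT, and at most 7 in any other library.

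Absence was concentrated in 3 libraries. Of the 65 members, 25 had no count in WT and 29 in KO of HFD SAT, 25 in WT and 1 in KO of chow SAT, 2 and 7 in VAT, and 2 and 0 in muscle. Among the 5993 genes of any biotype with a sum in the members' range, the share at 0 was 35.6% and 33.6% in HFD SAT, 16% and 0.768% in chow SAT, 4.87% and 8.26% in VAT, and 3.45% and 2.25% in muscle. Members at 0 made up 38.5% and 44.6% in WT and KO of HFD SAT, near that background in WT and above it in KO, and 38.5% in WT of chow SAT. In KO of HFD SAT 5 of 18 snRNA members and 24 of 46 snoRNA members were at 0. In WT of chow SAT 12 of 18 snRNA members and 13 of 46 snoRNA members were at 0. A count of 0 there allows up to 0.159 CPM, 3 counts of the library, so presence below that level was not detectable. Only 14 of 65 members had a count in every library. In HFD SAT, 1 member in WT and 0 in KO had 1 to 3 counts, and the members with a count had medians of 23 and 34.5 counts.

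Levels are compared between genes per length, as CPM per kilobase, and as the median over the 8 libraries. For snoRNA members these medians ran from 2.45 to 48.8, with a middle value of 9.47, and for snRNA members from 1.43 to 77.5, with a middle value of 11.4. The minimum sum sets a floor on these values for short genes. The hosts, over their exons, had middle values of 46.0 and 20.7. A member lay below its host in 43 of 45 snoRNA pairs and 13 of 17 snRNA pairs. Small RNA genes thus had, per length, fewer counts than the exons of the gene around them.

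Hosts did not have the members' ratios in chow SAT. There the members on their host's strand had a median log2 ratio of 1.48 and their hosts −0.11, with the member above its host in 31 of 34. The members opposite their host had a median of 2.87 and the hosts 0.70, with the member above in 14 of 14. The host *Rps3a1* (−1.48) was lower in KO of this pair, whereas *Dennd4a* was higher (2.86). In HFD SAT the medians were −1.07 for same-strand members and 0.01 for hosts, in VAT 0.42 and 0.07, and in muscle 0.12 and −0.42, with the member above its host in 10 of 28, 16 of 28 and 29 of 37. Across genes in chow SAT, Pearson's r between member and host was 0.367 on the same strand (n = 34) and 0.273 on the other (n = 14). These are descriptions over genes that share 2 libraries and in part a host.

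**Figure D5:**
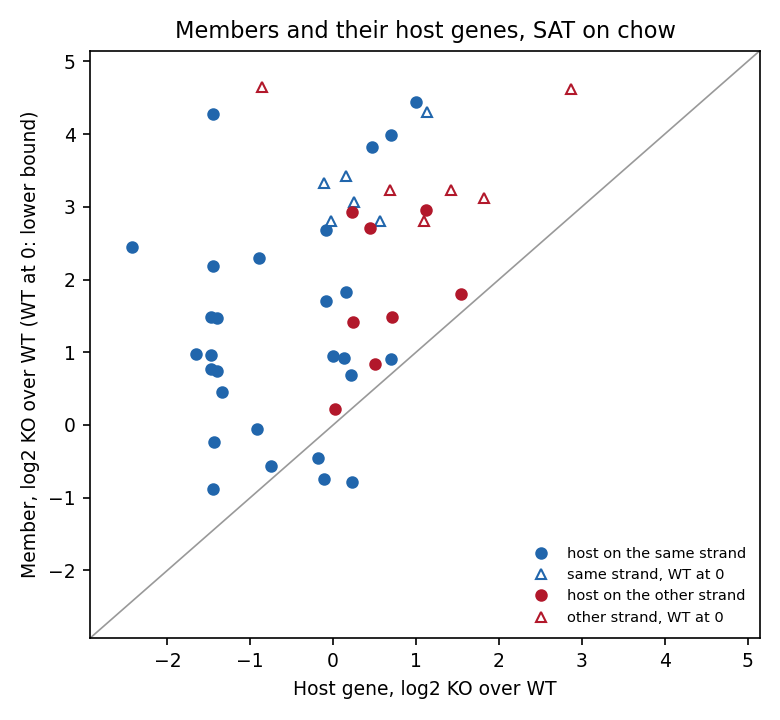
Log2 KO over WT of each member against that of its host gene in chow SAT, with members opposite their host in red; triangles are lower bounds for members with no count in WT and the line marks equal ratios. Points lie above the line for 31 of 34 members on the host's strand and 14 of 14 on the other.

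The genes that build small ribonucleoproteins had ratios to the other side in chow SAT. In that pair 11.5% of all genes were beyond 2-fold lower in KO, and the 45 protein-coding genes up to 500 bases that entered had a median log2 ratio of −1.40, with 44.4% of them beyond 2-fold lower. The 5 proteins of the box C/D particle include *Fbl*, the methyltransferase fibrillarin, and its partner *Nop56*. Their median log2 ratio was −0.95 in chow SAT and −0.35 in muscle, with all 5 intervals below 0 in each. Among all genes, 6802 of 16908 had an interval below 0 in chow SAT and 4898 of 16967 in muscle. None of the 5 was beyond 2-fold lower in either pair. The medians of the 5 were 0.03 in HFD SAT and 0.01 in VAT. *Fbl* had 3209 counts in WT and 1653 in KO of chow SAT, a log2 ratio of −0.95.

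The 6 proteins of the H/ACA particle and its assembly, which also holds telomerase RNA, had medians of −0.22, −1.16, 0.27 and 0.12 in HFD SAT, chow SAT, VAT and muscle, and 3 of 6 were beyond 2-fold lower in KO of chow SAT, against those 11.5% of all genes. *Dkc1*, the pseudouridine synthase dyskerin, had 1577 counts in WT and 568 in KO there, a log2 ratio of −1.47, and *Nhp2* had 1272 and 317, a ratio of −2.0. The 14 Sm and LSm proteins, which form rings on snRNAs, had a median of −1.29 in that pair, near that of the short protein-coding genes, with 8 of 14 beyond 2-fold lower, and medians of −0.08, 0.22 and −0.15 in the others. The snoRNP assembly factors (8 genes), the scaRNA and Cajal body list (6 of 7 genes), the snRNP-specific proteins (12) and the snRNA transcription and processing list (14) had medians of −1.01, −0.99, −0.81 and −0.67 in chow SAT.

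The host transcripts of the *Snhg* family with *Gas5* and the imprinted hosts had medians between −0.13 and 0.38 in the 4 pairs, over 15 or 16 genes. *Gas5*, which hosts many box C/D snoRNAs, had 4163 and 3728 counts in chow SAT, a ratio of −0.16. Across the 4 pairs edgeR called none of the genes in these lists at an adjusted p under 0.05, and 1, *Snrpg* of the Sm ring, had an unadjusted p under 0.05. So in chow SAT the summed share of the members was higher in KO, while the median ratios of the protein lists above lay below 0, in the same 2 libraries. The snoRNA members with the most counts, *Snora31* (153 in WT and 83 in KO) and *Snord104* (201 and 32), were lower in KO there. Whether the members bind these proteins was not tested.

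The tissues and diets were compared in the same fit. None of the 65 members was called in any of the 4 contrasts by edgeR. The contrast of HFD SAT with chow SAT called 0% of all genes and had 9 members at an unadjusted p under 0.05 (13.8%, beside 9.29% of all genes). Of these, 8 were lower on HFD, and all 8 had no count in either HFD library. The members as a set did not lie lower on HFD. Among the 65, 42 were above 0, with a median log2 fold change of 0.63, beside −0.32 for all genes. The lowest adjusted p of a member was 0.439, for *Gm22478*, which had no count in either HFD library. VAT against chow SAT called 5% of all genes and had 1 member at an unadjusted p under 0.05, *Gm23731*, a near copy of *Rnu6* with 88 counts, all in VAT and muscle. Muscle called 1.27% of all genes against chow SAT and 2.02% against VAT, with no member at an unadjusted p under 0.05 in either.

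DESeq2 called 2 of the 61 members it gave an adjusted p between HFD SAT and chow SAT (3.28%, beside 1.48% of all genes): *Gm22478*, lower on HFD (adjusted p 0.0267), and *Gm22572*, higher on HFD (adjusted p 0.0399). It called none in VAT against SAT, muscle against SAT and muscle against VAT, where it called 14.3%, 7.34% and 8.36% of all genes. There 39, 18 and 25 members were given an adjusted p. Among all members, 3, 1 and 1 had an unadjusted p under 0.05, beside 4054, 2395 and 2642 of all genes. None of those members was given an adjusted p in that contrast. *Gm22572* had 19 and 87 counts in WT and KO of HFD SAT, 0 and 6 in chow SAT, 4 and 15 in VAT, and 3 and 13 in muscle. *Gm22478* had 0 and 0, 28 and 79, 13 and 34, and 29 and 41. Without the SAT chow KO library, edgeR called *Gm24060* higher in VAT than in chow SAT (adjusted p 0.0397) and higher in muscle (adjusted p 0.0452). In those fits it was 1 of 52 members (1.92%), where 20.9% and 10.5% of all genes were called, so that the members lay far below the background.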

How the data were processed

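The files hold 1 table of read counts per Ensembl gene for 8 libraries of FACS-sorted mG+ cells. These are whole-number counts as the authors deposited them, with no normalization. The labels name a Qiagen column kit and a SMARTER mRNA library kit, whereas the methods of the study name Trizol. The submitters' processing notes name HISAT2 2.0.5 and the builds GRCm38 and mm10; the counting program, the annotation release and the use of strand are not given in the sources used here. Coordinates, sequences and hosts came from GENCODE M21 on GRCm38.

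The members, the gene lists and the tests were chosen with earlier results of these data known, so that no pattern here is independent support for another. Near copies were found with BLAST 2.17.0 at 90% identity over 90% of the length. Libraries were scaled by TMM in edgeR 4.0.16 (R 4.3.3). Within a pair, the ratio of KO to WT has an exact conditional binomial (Clopper-Pearson) interval at 95%, and a library at 0 was given a floor of 3 counts for lower bounds. Shares of counts have exact binomial intervals. Reads carry no molecular identifiers, so these intervals and the lower bounds cover counting error only. Across pairs, edgeR's robust quasi-likelihood test used genotype with tissue and diet as a block on the 16971 genes with a mean of 10 counts or more, adjusted by Benjamini-Hochberg over all of them at 0.05; because nothing says that pairs are separate cultures or animals, p-values measure the spread between these libraries. DESeq2 1.42.0 was the alternative tool. The edgeR test and the pair intervals were tested on simulated data. Named members were the 5 with most counts in each biotype, up to 3 each way per pair with the largest fold change among those whose interval lay wholly beyond 2-fold, up to 5 (genotype) or 3 (tissue and diet) each way among those called, any with its interval on 1 side of 0 in all 4 pairs, the 2 members just inside the minimum sum and the 2 genes just outside it. Beside them stand host genes and the fixed lists. Other members, such as *Gm22478*, *Gm22572*, *Gm23731*, *Gm25047* and *Gm23887*, were named after their values were seen. The alternatives were other scalings, prior counts, filters, minimum sums, denominators and left-out libraries; splitting members by the strand of the host (also within biotypes) and leaving *Gm26917* out of the denominator were added after the data were seen. The host of 1 member is not reported here.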

Additional observations from a re-analysis of the deposited data

Results flagged for a closer look

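The share of counts on the members lay on opposite sides of equality in different pairs, with every interval clear of 1, although both compare KO with WT. For all members the ratio of KO to WT was 2.62 in chow SAT and 1.35 in muscle, and 0.697 in HFD SAT. For snoRNA members it was 2.13 in chow SAT and 1.40 in muscle, and 0.554 in HFD SAT. For snRNA members it was 12.5 in chow SAT and 1.22 in muscle, and 0.802 in VAT, where the library labelled KO has more *Tert* counts than WT. With 1 library per genotype in a pair, the differences between pairs were not tested.

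The snRNA share of the KO library of HFD SAT, 54.2 CPM, was far from those of the other 3 KO libraries, with a gap of 0.856 of the range. The WT library of HFD SAT had a share near it, with a KO over WT ratio of 0.969 (0.847 to 1.11). Chance alone sets a sample apart in this way in about 1 of 20 groups, and the tissue and diet of the 4 KO libraries differ.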

How the results depend on the processing

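All values here are log2 ratios of KO to WT unless said. With a minimum sum of 400, which leaves *Snora31*, *Snord104* and *Gm24060*, the share of all members went to −0.073 in HFD SAT, −0.39 in chow SAT (reversed) and 0.13 in VAT, and that of snoRNA members to 0.18 in HFD SAT and −1.39 in chow SAT, both reversed. With a minimum of 40 it was 1.77 in chow SAT, and with no minimum 1.97 in chow SAT and −0.26 in VAT. Without the top member of each biotype it was 1.51 in chow SAT. With protein-coding counts as the denominator it was −0.65 in HFD SAT, and −0.66 without *Gm26917*. Members that overlap no gene on their strand gave 0.11 in HFD SAT (reversed) and 0.64 in muscle. Members on their host's strand gave −0.79 in HFD SAT, and those on the other strand gave 0.079 in HFD SAT (reversed), 2.87 in chow SAT and 0.69 in muscle. The last 2 choices turned the snRNA share in VAT to 0.051 and 0.026, both reversed. Over members averaging 50 counts or more the median member ratio was 0.95 in chow SAT (8 members) and turned from −0.22 to 0.25 in HFD SAT (4 members). Scaling by library totals in place of TMM moved the median of all genes to 0.23 in chow SAT, 0.16 in muscle and 0.12 in HFD SAT, and the members' medians there to 2.01, 0.34 and −0.16. The cause of these changes was not tested.

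DESeq2 called 2 members between HFD SAT and chow SAT, where edgeR called 0. Over all genes, edgeR called 1, 0, 849, 215 and 343 (genotype, HFD SAT against chow SAT, VAT and muscle against chow SAT, muscle against VAT), DESeq2 19, 246, 2280, 1053 and 1253, and edgeR with no filter 42, 317, 2100, 971 and 1159. Leaving out 1 library, with the lone one assumed to vary like the others, gave 0 to 1 members called for VAT and for muscle against chow SAT, the 1 in each, *Gm24060*, without the chow SAT KO library. Leaving out 1 pair gave exact p from 0.5 to 1 for all members, 0.25 to 1 for snoRNA and 0.5 to 1 for snRNA members, and without chow SAT the mean turned negative (exact p 0.75, 1 and 0.75). Of the other values answering a comparison, 109 stayed within the interval of the reported value (for medians, an interval over members) or kept their call, as did 315 of those for single members or biotypes, where 41 moved further and 4 reversed. No pairing by animal or replicate was possible because the labels carry no replicate numbers. Pairing in the tests here is by tissue and diet only, and without that block edgeR also called 0 members. Member sums of 81 to 685 over 8 libraries limit what single members can show.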
